A study of Mus musculus with 32 samples.

Results

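Acetylation of histone H3 at lysine 9 (H3K9ac) was mapped by chromatin immunoprecipitation and sequencing (ChIP-seq) in J1 mouse embryonic stem (ES) cells. The libraries are 1 from wild-type cells, 1 from cells in which Taf5l is knocked out (Taf5l-KO) and 1 from cells in which Taf6l is knocked out (Taf6l-KO). The members are the H3K9ac peaks that the authors' peak caller listed in these 3 libraries on chromosomes 1 to 19. There are 4024 for the wild type, 110 for Taf5l-KO and 880 for Taf6l-KO, or 5014 of the 371463 peaks in the 26 lists of the series. All 3 groups were grown in medium with serum and LIF, with no treatment named, and were precipitated with the same H3K9ac antibody. The labels do not say how the knockouts were made or how many clones they represent. The file headers name the input library of each knockout with 1 clone label and give none for the H3K9ac libraries. The other lists used below come from the same genotypes and target H3K4me3, RNA polymerase II, Myc and Oct4, or come from J1 cells with tagged TAF5L or TAF6L or with the biotin ligase BirA alone. With 1 library per genotype there is no replicate check and no test between genotypes. The intervals given with shares are exact (Clopper-Pearson) 95% binomial intervals, cover counting error only, and treat neighbouring peaks as independent. Positions refer to the mouse build mm9. Genes at the peaks were not analysed here, as the gene table in use has another build.

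H3K9ac is a mark of active promoters, where it sits on the nucleosomes beside the transcription start site together with H3K4me3. The acetyl groups are placed mainly by the closely related enzymes KAT2A (GCN5) and KAT2B (PCAF), which work inside the large coactivator complexes SAGA and ATAC. TAF5L and TAF6L are structural subunits of SAGA-type complexes and relatives of the TFIID subunits TAF5 and TAF6. In ES cells such complexes have been linked to the Myc and pluripotency networks.

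H3K9ac peaks were fewer and narrower in both knockout lists, and more so in Taf5l-KO. The Taf5l-KO list had 0.0273 times and the Taf6l-KO list 0.219 times as many peaks as the wild-type list. The sequence under the peaks was 2.54 Mb long in the wild type, against 0.0251 Mb for Taf5l-KO and 0.322 Mb for Taf6l-KO. The median peak was 483 bp wide in wild-type cells (middle 50% of peaks from 277 to 827 bp). In Taf5l-KO it was 135 bp (117 to 293 bp), and in Taf6l-KO 276 bp (169 to 478 bp). The widest peak of each list measured 4017, 1578 and 1990 bp, in the order wild type, Taf5l-KO, Taf6l-KO. Whether acetylation itself fell was not tested, as the number and width of listed peaks also depend on the precipitation and on peak calling. Fewer acetylated cells and less acetylation in every cell could not be told apart in such bulk material either.

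**Figure D1:**
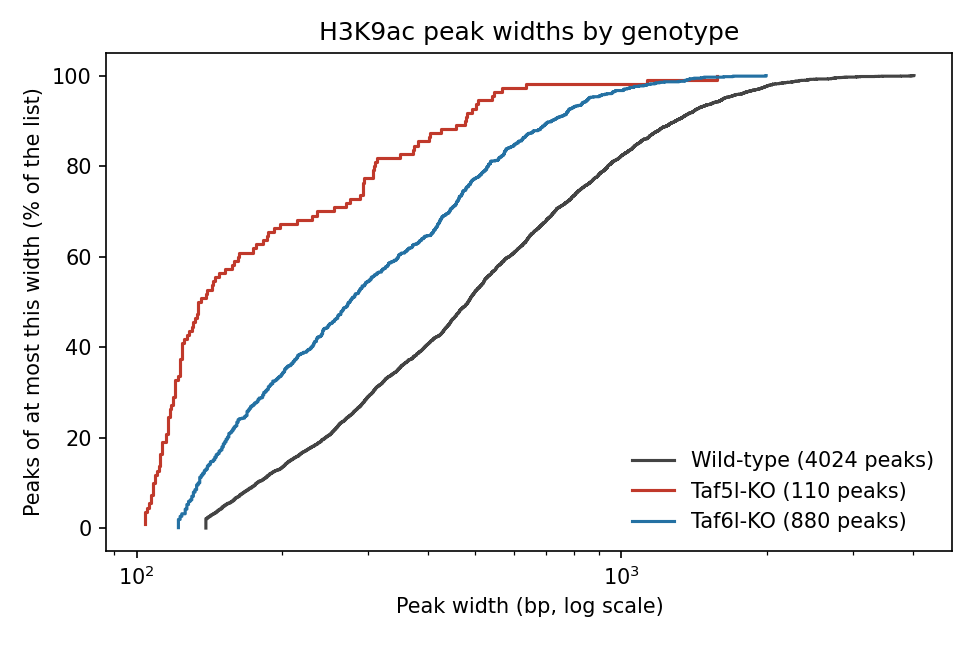
Cumulative distribution of H3K9ac peak width (x axis, bp, log scale) as the percentage of each list at or below that width (y axis), 1 line per genotype. The medians are 483 bp in wild-type cells, 276 bp in Taf6l-KO and 135 bp in Taf5l-KO, and each line starts at a different smallest width (139, 122 and 104 bp).

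The libraries differed in depth and in modelled fragment size. The H3K9ac libraries held 17460064 (wild-type), 22968606 (Taf5l-KO) and 18739413 (Taf6l-KO) unique tags. Each was scaled down by the peak caller to its input, which held 7771755, 6245652 and 5923469 unique tags, so the peaks were called at 0.804 and 0.762 times the wild-type depth. Both knockout lists were called at lower depth than the wild-type list and were shorter than it. Between the knockouts, Taf6l-KO had the smaller input and the longer list. The H3K4me3 lists, called against the same inputs, held 0.989 and 0.905 times the wild-type number of peaks. The part that input depth played in the H3K9ac numbers was not tested. The smallest width in each H3K9ac list equalled the fragment size modelled for its library, at 139 bp, 104 bp and 122 bp. These sizes fell in the same order as the peak numbers, from wild type to Taf6l-KO to Taf5l-KO, and their part was not tested. Among peaks of at least 139 bp, 54 remained for Taf5l-KO and 768 for Taf6l-KO, and the ratios of median width rose from 0.280 to 0.607 and from 0.570 to 0.650. For the strongest 110 peaks of each list, median widths were 952 bp for the wild type, 135 bp for Taf5l-KO and 188 bp for Taf6l-KO. Strong peaks were thus the wide ones in wild-type cells but not in Taf6l-KO, where the other 770 peaks had a median of 287 bp. Across peaks, the rank correlation of fold enrichment with width was 0.307 in wild-type cells, −0.0800 in Taf6l-KO and −0.333 in Taf5l-KO. Peaks are not replicates, both values come from the same pileup, and this is a description only.

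A wild-type peak is called kept here when at least 1 bp of it lies under a peak of the knockout list, and lost otherwise. A lost peak was not listed, which does not show that acetylation was absent. Taf5l-KO kept 105 of the 4024 wild-type peaks, or 2.61% (2.14 to 3.15), and Taf6l-KO kept 779, or 19.4% (18.1 to 20.6). Thus 97.4% and 80.6% of the wild-type peaks were lost, the former in Taf5l-KO. As a scale for these shares, Taf5l-KO kept 84.2% of the 31027 wild-type H3K4me3 peaks (15.8% lost) and 52.5% of the 28007 wild-type RNA polymerase II (RNAP) peaks (47.5% lost). Taf6l-KO kept 80.3% (19.7% lost) and 60.1% (39.9% lost). The lists were not equally strong, as the median −log10 q of wild-type peaks was 2.61 for H3K9ac, 5.62 for H3K4me3 and 3.03 for RNAP. For RNAP the depth at calling was also lower in the wild type, at 5174150 tags, than in Taf5l-KO (6245652) and Taf6l-KO (5923469). The median pileup of the wild-type H3K9ac peaks was 8.34, and the lowest listed pileup was 6.48 in Taf5l-KO and 5.13 in Taf6l-KO. The part that nearness to the calling limit played in the losses was not tested. Requiring 50% of the wild-type peak to be covered lowered the H3K9ac shares to 0.522% for Taf5l-KO and 7.33% for Taf6l-KO. Among the strongest 1000 wild-type peaks 8.60% and 45.8% were kept. The following classes rest on 1 wild-type list that serves both knockouts. They hold 99 peaks found again in both knockouts, 680 found in Taf6l-KO only, 6 found in Taf5l-KO only and 3239 (80.5%) in neither. The knockout lists can also be compared directly, without the wild type. Of the 110 Taf5l-KO peaks 103, or 93.6% (87.3 to 97.4), overlapped a Taf6l-KO peak. The same overlap took in 103 of the 880 Taf6l-KO peaks, or 11.7% (9.65 to 14.0).

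Whether a wild-type peak was kept went with how strong and how wide it was. Fold enrichment is the authors' value for each peak, the ratio of its pileup to the background estimated from the input, and is used here only within a list. In the weakest 10% of the wild-type list, 0 of 403 peaks were kept in Taf5l-KO, which allows a share of up to 0.744% (3 peaks of 403, the limit used for counts of 0) or 0.911% by the exact interval. Taf6l-KO kept 7.94% (5.49 to 11.0) of these. The Taf6l-KO share stayed between 5.22% and 9.95% over the weaker 6 of the 10 strength groups. It then rose to 19.9%, 29.4%, 36.1% and, in the strongest 10%, 62.8% (57.9 to 67.5). In Taf5l-KO the last 4 groups had shares of 1.99%, 2.49%, 6.22% and 13.4% (10.2 to 17.1). Of the strongest 110 wild-type peaks, as many as the Taf5l-KO list holds, 24 (21.8%, 14.5 to 30.7) were kept by Taf5l-KO and 87 (79.1%, 70.3 to 86.3) by Taf6l-KO. The Taf5l-KO list was therefore not simply the top of the wild-type list.

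**Figure D2:**
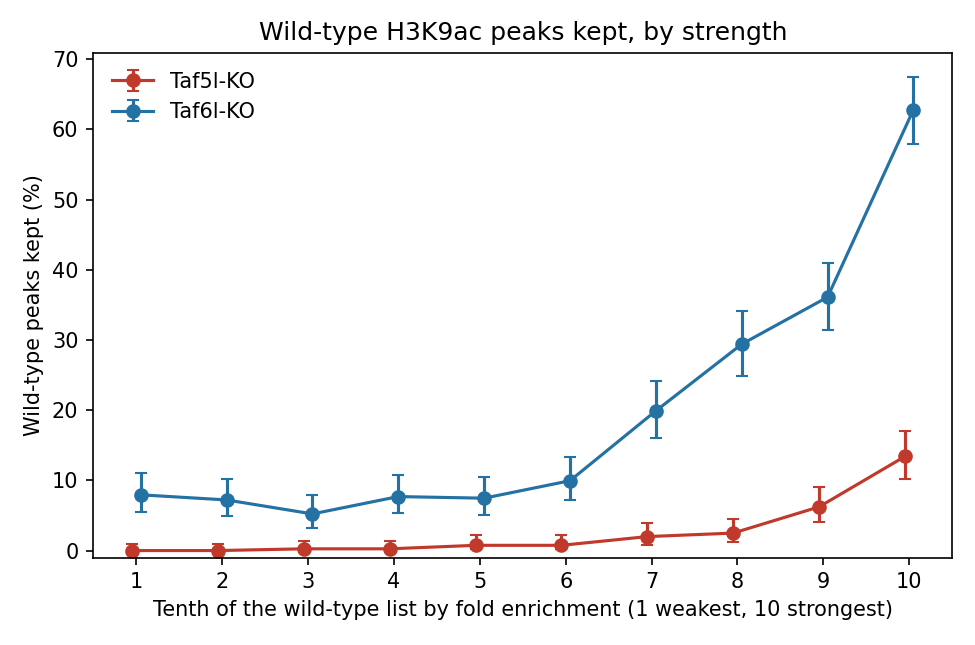
Percentage of wild-type H3K9ac peaks kept in each knockout (y axis) in 10 equal groups of the wild-type list ordered by fold enrichment (x axis, 10 strongest). Points are shares of 402 or 403 peaks and bars are exact 95% binomial intervals; the Taf6l-KO share reaches 62.8% and the Taf5l-KO share 13.4% in the strongest group.

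In Taf6l-KO the kept share went with width also within broad groups by strength. When the wild-type list was cut into 4 equal parts by fold enrichment and 4 by width, the Taf6l-KO share in the strongest part climbed from 25.0% (18.8 to 32.1) of the narrowest peaks to 62.7% (58.1 to 67.2) of the widest. In the next strongest part it climbed from 7.86% (4.72 to 12.1) to 31.7% (26.4 to 37.4). These parts span fold enrichments of 5.57 to 14.9 and 4.82 to 5.57, so strength can still differ with width inside them. In Taf5l-KO, the shares in the strongest part were 7.39% (3.99 to 12.3), 8.28%, 4.55% and 11.0% (8.30 to 14.3) from narrow to wide, with overlapping intervals. A wider peak also offers more bases to be touched by a knockout peak, and the part this plays was not tested.

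**Figure D3:**
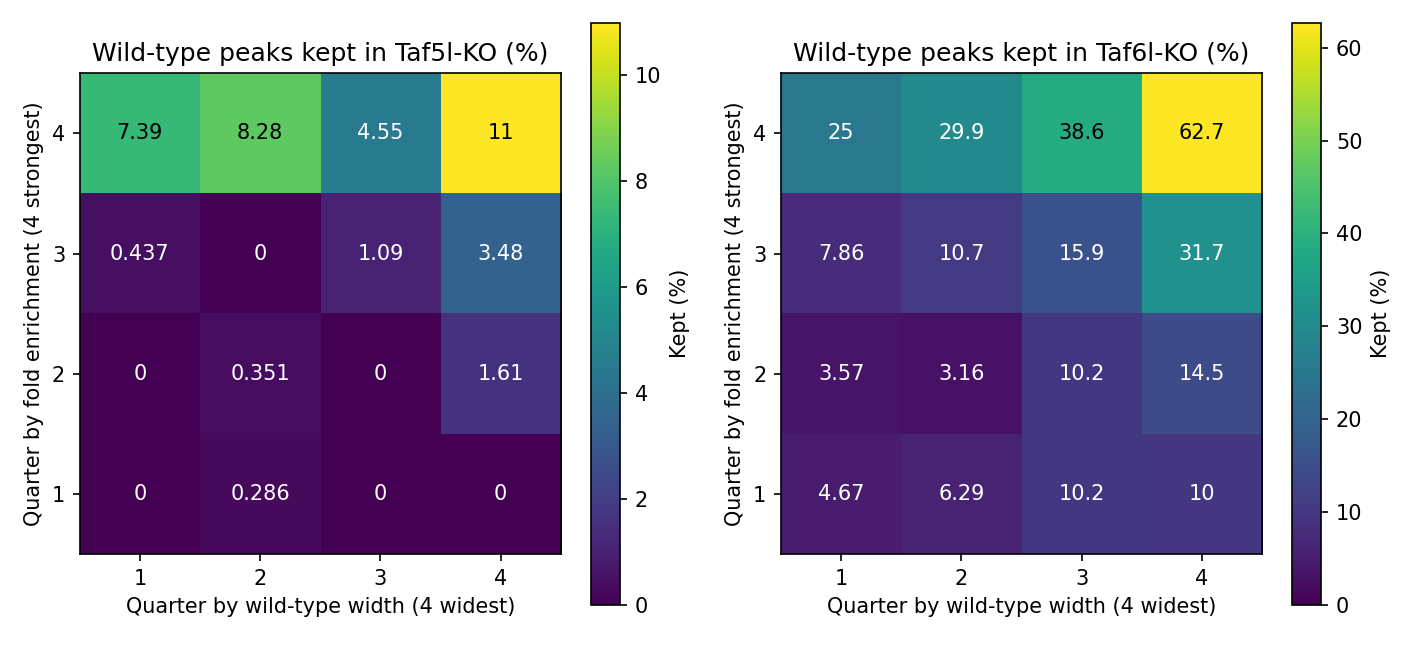
Share (%) of the wild-type H3K9ac list kept by Taf5l-KO (left) and Taf6l-KO (right) in 4 equal groups by wild-type width (x axis, 4 widest) and 4 by fold enrichment (y axis, 4 strongest); the colour scales differ. The highest cell is the strongest and widest one in each panel, at 11.0% of 453 peaks in Taf5l-KO and 62.7% of the same peaks in Taf6l-KO.

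Peaks kept in both knockouts had a median width of 1025 bp and a median wild-type fold enrichment of 6.69. For those kept in Taf6l-KO only these were 860 bp and 5.68, and for those kept in neither 436 bp and 4.68. The ranges overlapped, since fold enrichments ran from 4.32 to 10.5, from 2.20 to 14.9 and from 2.41 to 12.1. The strongest peaks kept in both lie close together on chromosome 11. The first, chr11:101519316-101519548, is 233 bp wide with a fold enrichment of 10.5. It shrank to 152 bp in Taf5l-KO (fold enrichment in that list 9.13) and 189 bp in Taf6l-KO (9.88), and it also carried Oct4, TAF6L-FB, H3K4me3 and RNAP peaks. The second, chr11:101488467-101488654, is 188 bp wide (10.5) and was 123 bp and 161 bp in Taf5l-KO and Taf6l-KO. The next 3 are wider. The peak chr2:156004963-156006630 (fold enrichment 10.2) went from 1668 bp to 293 bp (Taf5l-KO) and 613 bp (Taf6l-KO). The peak chr18:6490177-6491141 (9.89) went from 965 bp to 507 bp and 623 bp, and chr11:59623006-59624094 (9.43) from 1089 bp to 309 bp and 358 bp. All 5 overlapped H3K4me3 and RNAP peaks in all 3 genotypes. So did most of the 4024 wild-type peaks, as H3K4me3 overlapped 97.4% to 98.5% and RNAP 89.9% to 94.7% of them, depending on the genotype.

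The strongest H3K9ac peak of wild-type cells was kept in Taf6l-KO only. It is chr2:164704898-164705296, 399 bp wide with a fold enrichment of 14.9, and it measured 297 bp in Taf6l-KO (5.90 in that list). The next was chr1:72290551-72290789 (12.6), which went from 239 bp to 155 bp and overlapped Oct4 and TAF6L-FB peaks. It was followed by chr8:32260435-32260658 (11.5) and chr7:31348367-31348687 (11.4), of which 79.0% and 79.8% stayed covered. Of the fifth, chr1:58479760-58480853 (10.6), 230 of 1094 bp were listed. These 5 overlapped H3K4me3 and RNAP peaks in every genotype, Taf5l-KO included, as most wild-type H3K9ac peaks did.

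Only 6 wild-type peaks were kept in Taf5l-KO alone. The strongest, chr11:87275575-87275748 (fold enrichment 6.42), went from 174 bp to 111 bp in Taf5l-KO. The next were chr4:137149721-137150522 (6.09), chr4:151852047-151852223 (6.03), chr11:52045231-52046262 (5.88) and chr16:48993389-48994049 (5.48). Their Taf5l-KO pieces measured 159, 104, 110 and 106 bp, beside a smallest width of 104 bp and a median of 135 bp in that list. The third of these had no RNAP peak in any genotype.

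Among the peaks kept in neither knockout, the strongest were chr10:126748139-126748743 (fold enrichment 12.1, 605 bp) and chr12:8647640-8647857 (10.7, 218 bp). After them came chr4:133523507-133523827 (9.81, 321 bp), chr11:102993664-102994179 (9.54, 516 bp) and chr1:130255196-130256619 (9.17, 1424 bp). All 5 lay under H3K4me3 peaks in the 3 genotypes, and 3900 of all 4024 wild-type H3K9ac peaks overlapped one in each. The ones on chromosomes 10 and 11 also overlapped wild-type Myc peaks, and the one on chromosome 4 a TAF6L-FB region. RNAP was listed at 4 of them in all 3 genotypes, and at the one on chromosome 12 in wild-type cells alone. These 5 were picked as the strongest of their class. In the strongest 10% of the whole wild-type list, 62.8% of peaks were kept in Taf6l-KO and 13.4% in Taf5l-KO. A high wild-type fold enrichment was therefore no assurance of being kept.

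Kept peaks were narrowed in both knockouts. Every one of the 105 wild-type peaks kept in Taf5l-KO was wider than the knockout peak over it, with a median of 985 bp in wild-type cells and 139 bp in Taf5l-KO. The part of the wild-type peak that stayed covered had a median of 21.8% (middle 50% of peaks 13.3% to 41.7%, range 6.05% to 88.2%). In Taf6l-KO, 735 of 779 kept peaks were narrower and 43 wider than in wild-type cells. Their median widths were 890 bp in wild-type cells and 295 bp in Taf6l-KO, and the covered part had a median of 40.1% (23.8% to 66.1%). In bases, 23.9 of 111 kb under the kept peaks stayed covered in Taf5l-KO and 288 of 771 kb in Taf6l-KO. Over the whole wild-type list the knockouts covered 0.941% and 11.3% of the bases.

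**Figure D4:**
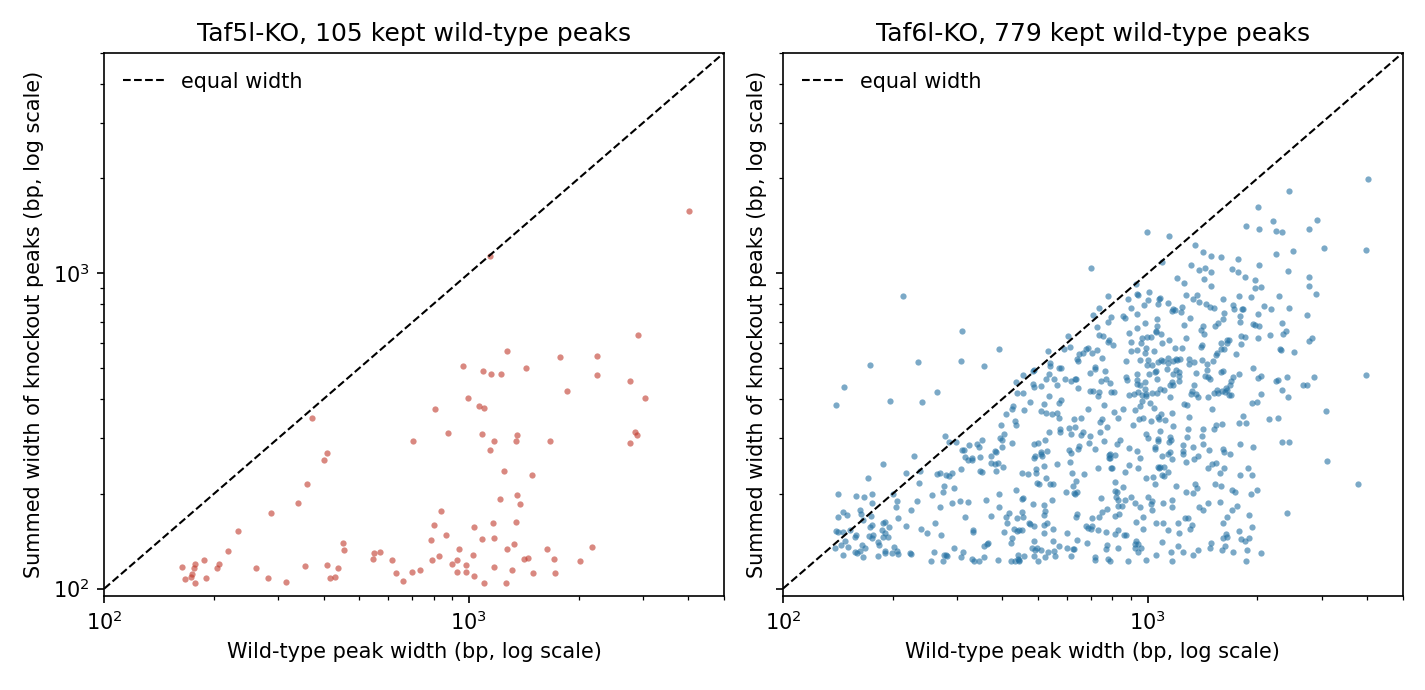
Each point is a wild-type H3K9ac peak kept in Taf5l-KO (left, 105 peaks) or Taf6l-KO (right, 779 peaks), with its wild-type width on the x axis and the summed width of the overlapping knockout peaks on the y axis (bp, log scales). The dashed line marks equal width; all 105 points lie below it in Taf5l-KO and 735 of 779 in Taf6l-KO.

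The 99 peaks kept in both knockouts allow the knockouts to be set side by side at the same places. The Taf5l-KO peak was the narrower at 95 of them (96.0%, 90.0 to 98.9), with medians of 140.0 bp for Taf5l-KO and 413 bp for Taf6l-KO against 1025 bp for the wild type. Of the 103 overlapping pairs of knockout peaks, the Taf5l-KO peak lay wholly inside the Taf6l-KO peak in 86 (83.5%). The modelled fragment sizes, which set the smallest width, differ in the same direction between these libraries, at 104 and 122 bp.

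Measured by the covered part, narrowing was greatest at wide peaks. Over the 4 width groups from narrow to wide, the median covered part was 63.4%, 33.3%, 19.8% and 14.6% in Taf5l-KO, over 14, 15, 13 and 63 kept peaks. In Taf6l-KO it was 81.2%, 52.9%, 43.8% and 30.7%. The knockout peaks at the widest wild-type peaks were still the longest, with medians of 192 bp in Taf5l-KO and 432 bp in Taf6l-KO. In the narrower groups the medians were 116, 133 and 124 bp in Taf5l-KO, where the smallest listed width was 104 bp. In Taf6l-KO they were 157, 227 and 277 bp. Over the narrower groups the Taf5l-KO covered part thus fell while the remnants stayed of similar width. A peak near the smallest width has little room to narrow and still be listed. The widest wild-type peak, chr19:5800130-5804146, kept 39.3% of its 4017 bp in Taf5l-KO and 49.5% in Taf6l-KO, and these were the widest peaks of both knockout lists. The next widest, chr17:36052510-36056484 and chr17:34255596-34259555, were absent from the Taf5l-KO list and were each split into 2 pieces in Taf6l-KO that covered 29.9% and 12.0%. The peak chr5:120120162-120124094 (3933 bp) was in neither knockout list, and of chr11:120207864-120211635 (3772 bp) only 215 bp remained in Taf6l-KO.

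What was left of a kept peak usually lay within its wild-type borders. Of the 105 Taf5l-KO peaks that overlapped the wild-type list, 97 (92.4%, 85.5 to 96.7) had every base inside a wild-type peak, and 596 of 793 (75.2%, 72.0 to 78.1) did so in Taf6l-KO. The centre of the knockout peak fell in the central one of 3 equal parts of the wild-type peak in 51 of 105 cases (48.6%, 38.7 to 58.5) for Taf5l-KO and 406 of 793 (51.2%, 47.7 to 54.7) for Taf6l-KO. Its median distance from the wild-type centre was 165 bp and 139 bp. Remnants were thus found off centre as well as at the centre. The 3 peaks kept in both knockouts with the smallest covered part, taken as the mean over both, show this. At chr2:13994824-13996460, 134 bp in Taf5l-KO and 149 bp in Taf6l-KO were left of 1637 bp, from 13995522 and 13995532 onwards. At chr3:132345658-132347365, 124 bp and 205 bp of 1708 bp were left, beginning at 132346893 and 132346850. At chr15:80085730-80087056, both knockout peaks (139 bp and 159 bp) straddled the left border of the 1327 bp peak. The remnants of both knockouts overlapped at each of these places. The 3 peaks kept in both knockouts with the largest mean covered part were short, from 163 to 176 bp in wild-type cells. The first, chr16:72663159-72663321, was covered to 71.8% (Taf5l-KO) and 96.3% (Taf6l-KO).

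Only wide peaks were broken up. In Taf6l-KO, 12 wild-type peaks corresponded to 2 knockout peaks and 1 to 3, all among the widest 25% of the list, and none was split in Taf5l-KO. The peak in 3 pieces was chr13:23830253-23832547, with 847 of 2295 bp left. A further 3 of the 13 split peaks lay on chromosome 13 between 21844759 and 23854221, a grouping noticed after the values were seen. None of the 13 was kept in Taf5l-KO, beside 99 of all 779 peaks kept in Taf6l-KO (12.7%), and 13 peaks are too few to set the shares apart.

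H3K4me3 served as a second promoter mark at the same places. Of the 4024 wild-type H3K9ac peaks, 98.5% (98.1 to 98.9) lay at least partly under a wild-type H3K4me3 peak, so the list had the location known for H3K9ac. Nearly all overlaps (3839 of 3966, or 96.8%) had the H3K9ac peak wholly inside the H3K4me3 peak. The reverse was uncommon, since 3848 of 31027 H3K4me3 peaks (12.4%) held an H3K9ac peak, and these were wide, with a median of 2117 bp against 681 bp for the rest. H3K4me3 lay over 97.4% (96.9 to 97.9) of the wild-type H3K9ac peaks in Taf5l-KO and over 97.6% (97.1 to 98.1) in Taf6l-KO. At the 3900 H3K9ac peaks with H3K4me3 in all 3 genotypes, the median H3K4me3 width was 2178.5 bp for the wild type, 2038 bp for Taf5l-KO and 1894 bp for Taf6l-KO. Per place, the H3K4me3 width was at a median of 96.0% of its wild-type value in Taf5l-KO and 90.3% in Taf6l-KO. At kept H3K9ac peaks the H3K4me3 width was 94.8% and 89.1% of the wild-type value, while the H3K9ac width was 21.8% and 42.0%. H3K9ac was the more narrowed mark at 100 of 103 such places in Taf5l-KO and 684 of 774 in Taf6l-KO. The knockout with the smaller H3K9ac remnants, Taf5l-KO, was the one with the wider H3K4me3 peaks.

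H3K4me3 and RNAP peaks at wild-type H3K9ac peaks mostly stayed listed in both knockouts. Of the 3848 wild-type H3K4me3 peaks at H3K9ac peaks, 99.0% (98.6 to 99.3) were kept by Taf5l-KO and 99.1% (98.8 to 99.4) by Taf6l-KO. Of the 3549 RNAP peaks there, 98.8% (98.4 to 99.1) and 99.0% (98.6 to 99.3) were kept, and the median covered part of those was 98.6% and 97.4%. For polymerase phosphorylated at serine 2 of its C-terminal repeats (RNAP-ser2) 89.3% and 95.3% of 2742 peaks were kept, and for the serine 5 form (RNAP-ser5) 90.3% and 71.3% of 2007. Over all wild-type peaks of these lists the shares were lower, at 84.2% and 80.3% for H3K4me3 and 52.5% and 60.1% for RNAP. They were 36.4% and 38.3% for RNAP-ser2 and 26.3% and 16.0% for RNAP-ser5. The H3K4me3 peaks at H3K9ac peaks were the wider ones, and the part of this selection was not tested. These antibodies were called against the same inputs as H3K9ac, but the smaller of ChIP and input library set the depth. In the order wild type, Taf5l-KO, Taf6l-KO, it was 5174150, 6245652 and 5923469 tags for RNAP. For RNAP-ser2 it was 6295522, 5390622 and 3842867 tags, and for RNAP-ser5 3871824, 6245652 and 1702363. The part of this depth in the shares was not tested. The ChIP libraries and enrichments of these antibodies also differ, so the shares describe each list and do not measure a change in signal.

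The classes of H3K9ac peaks also differed in what else lay over them in wild-type cells. H3K4me3 was found at nearly all peaks of each class, 98.0% of those kept in both knockouts, 99.9% of those kept in Taf6l-KO only and 98.2% of those kept in neither. RNAP overlapped 97.0% (91.4 to 99.4), 96.0% (94.3 to 97.4) and 88.4% (87.3 to 89.5). RNAP-ser5 overlapped 63.6% (53.4 to 73.1), 65.6% (61.9 to 69.2) and 46.2% (44.5 to 48.0), and RNAP-ser2 77.8%, 83.7% and 65.6%. Myc, a factor of growth genes, overlapped 23.2% (15.3 to 32.8), 16.5% (13.8 to 19.5) and 4.66% (3.96 to 5.45). In the strongest 25% of wild-type peaks these Myc shares were 25.6% (16.6 to 36.4), 21.7% (17.6 to 26.2) and 11.3% (8.72 to 14.2). The RNAP shares there were 96.3%, 98.1% and 97.4%, with overlapping intervals. RNAP-ser5 was there at 65.9% (54.6 to 76.0), 74.3% (69.6 to 78.7) and 60.3% (56.1 to 64.5). RNAP-ser2 was there at 79.3% (68.9 to 87.4), 89.2% (85.6 to 92.1) and 77.1% (73.4 to 80.6). For both forms, intervals overlapped between peaks kept in both and in neither, but not between those kept in Taf6l-KO only and in neither. When only the centre of the H3K9ac peak was looked up, which sets aside its width, Myc was found at 2.02%, 3.24% and 1.33%. With both limits together the order turned, and Myc lay over the centre of 2.44% (0.297 to 8.53), 3.97% (2.24 to 6.46) and 4.61% (3.01 to 6.73) of the peaks, with overlapping intervals. The Myc difference between the classes therefore depended on how overlap was counted. The pluripotency factor Oct4 overlapped 34 of the 4024 peaks.

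**Figure D5:**
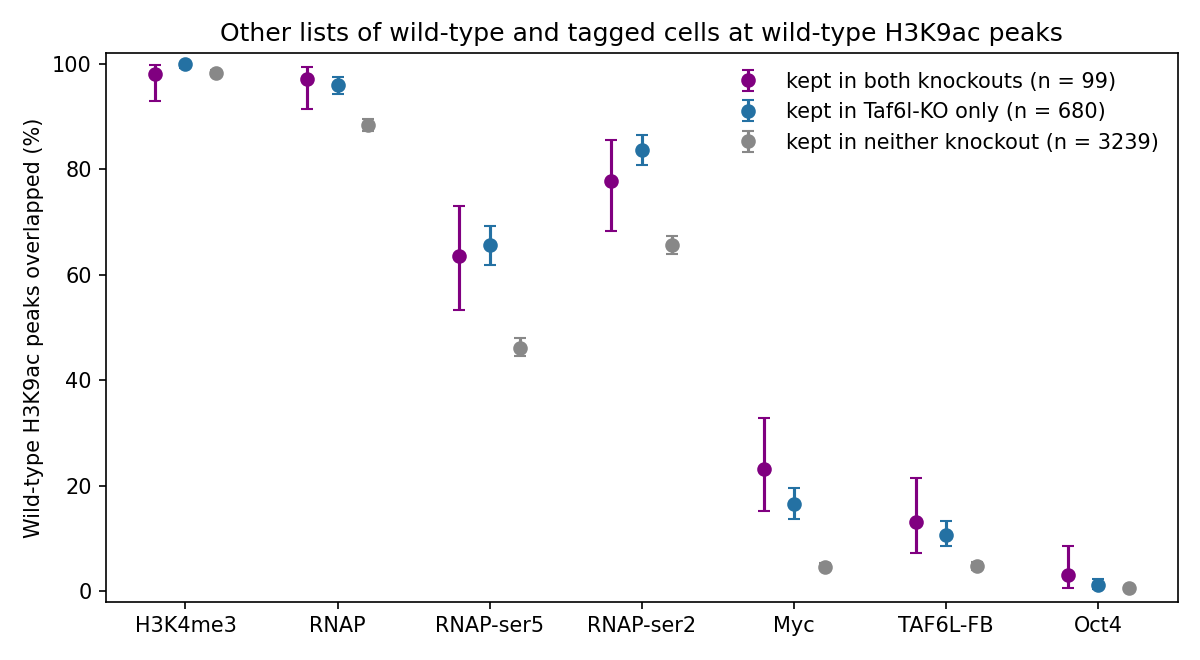
Percentage of wild-type H3K9ac peaks (y axis) that overlapped a peak of each other list (x axis), by the class of the H3K9ac peak. Bars are exact 95% binomial intervals; Myc covered 23.2% of the peaks kept in both knockouts and 4.66% of those kept in neither, while H3K4me3 covered at least 98.0% of each class. The antibody lists are those of wild-type cells, and TAF6L-FB regions are joined over its lines. In the strongest 25% of wild-type peaks these Myc shares were 25.6% and 11.3%. Counted at the peak centre in that part they were 2.44% and 4.61%, with overlapping intervals.

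TAF6L carrying a Flag-Biotin tag (TAF6L-FB), pulled down with streptavidin, was listed at 240 of the wild-type H3K9ac peaks, or 5.96% (5.25 to 6.74). No BirA control peak lay on any. The share was 13.1% (7.18 to 21.4) of the peaks kept in both knockouts, 10.7% (8.51 to 13.3) of those kept in Taf6l-KO only and 4.75% (4.05 to 5.54) of those kept in neither. Among the strongest 25% of wild-type peaks these shares were 14.6%, 10.8% and 9.04%, with overlapping intervals. Most of the overlap came from 1 of the tagged lines, called line 1 as it is listed before the other, line 2. Without that line the shares were 2.02%, 2.79% and 1.48%, and without line 2 they were 12.1%, 9.26% and 3.58%. Tagged TAF5L was listed at 14 of the 4024 peaks, of which 6 were kept in neither knockout.

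Peaks outside the wild-type list were few, 5 in Taf5l-KO (4.55%, 1.49 to 10.3) and 87 in Taf6l-KO (9.89%, 7.99 to 12.1). They were short, with median widths of 120.0 bp and 179 bp against 139 bp and 289 bp for the peaks inside the list. Of the 5 in Taf5l-KO, 4 were also listed in Taf6l-KO. The strongest, chr15:79489426-79489545 (fold enrichment 7.46) and chr9:65044551-65044674 (7.04), are among these, and the next, chr14:51683291-51683472 (6.70), is not. The strongest in Taf6l-KO were chr10:79896513-79896695 (10.6), which overlapped a TAF6L-FB region, chr11:115425552-115425759 (9.89) and chr9:78023506-78023646 (8.93). Most of them lay at H3K4me3 peaks. Of the 87 in Taf6l-KO, 79 overlapped a wild-type H3K4me3 peak and 86 a Taf6l-KO one, while RNAP was listed at 64 in wild-type cells and 76 in Taf6l-KO. Only 9 lay within 10 kb of a wild-type H3K9ac peak.

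The strongest knockout peaks lay mostly at strong wild-type peaks. The strongest 110 Taf6l-KO peaks overlapped 101 wild-type peaks, of which 49 belonged to the strongest 10% of the wild-type list and 7 to the weakest 50%. Of these 110 Taf6l-KO peaks, 19 (17.3%) overlapped one of the strongest 110 of the 4024 wild-type peaks. The whole Taf6l-KO list kept 87 (79.1%) of those 110 wild-type peaks. Among the 105 wild-type peaks kept by Taf5l-KO, 54 belonged to the strongest 10% and 5 to the weakest 50%. With both lists limited to −log10 q of at least 5, 60.3% of the 232 Taf6l-KO peaks and 80.6% of the 31 Taf5l-KO peaks overlapped one of the 651 wild-type peaks. With this limit, Taf6l-KO had 0.356 times and Taf5l-KO 0.0476 times as many peaks as the wild type.

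Losses were spread over all chromosomes. Chromosome 11 held the most wild-type peaks, 434 or 10.8% of the list. The share kept in Taf6l-KO ran from 12.9% (7.86 to 19.7) of 139 peaks on chromosome 16 to 24.6% (18.4 to 31.6) of 175 peaks on chromosome 13. In Taf5l-KO it ran from 0.448% (0.0114 to 2.47) of 223 peaks on chromosome 9 to 4.35%, reached on chromosomes 7, 15 and 18 by 12 of 276, 6 of 138 and 5 of 115 peaks. The intervals of the highest and lowest chromosomes overlapped for Taf6l-KO, and the Taf5l-KO counts were between 1 and 13 per chromosome.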

How the data were processed

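The data are peak lists from ChIP-seq, 1 per precipitated library, so no replicates were pooled. The submitters' processing notes name Bowtie2 2.3.2, deepTools 2.5.3 and the build mm9. The file headers name MACS2 2.1.1.20160309 as the peak caller and an input library as its control. Per the file headers, it used a q cutoff of 0.05, linked broad regions at 0.1 for the histone marks and polymerase, kept 1 tag at each position and scaled the larger library to the smaller. The deposited lists give a pileup (signal) for each peak, its fold enrichment (a ratio to the local background) and −log10 p and −log10 q, all as the authors' caller wrote them.

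Peaks on chromosomes 1 to 19 of all 26 lists were used. Overlap was at least 1 bp. TAF regions were joined over both lines and those touching a BirA peak removed. Python 3.11.15, pandas 2.3.3 and SciPy 1.17.1 were used, and the overlap steps were tested on simulated lists. The groups came from the sample titles. Medians carry order-statistic intervals in the comparison of settings. Alternatives were a −log10 q of at least 5, 50% coverage, a gap of 1000 bp, merging of peaks under 1000 bp apart, chromosomes X and Y, the strongest 1000 wild-type peaks, lists of equal length, a common smallest width and single pairs. The members, rules and lists were chosen with earlier results of these data known. Regions were named by rank on fold enrichment within each class (5 each, and 3 for knockout peaks outside the wild-type list), on width (5) and, among peaks kept in both knockouts, on the covered part averaged over both (3 at each end); the split peaks were named outside this rule. Gene lists were not used, because the gene table in use has another build, and the targeted genes were not analysed here.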

Additional observations from a re-analysis of the deposited data

How the results depend on the processing

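All peak number and width ratios stayed below 1 in the settings tried. With −log10 q of at least 5, the Taf5l-KO values were 0.0476 (peak number ratio), 3.84% (kept), 80.6% (inside the wild-type list), 0.151 (width ratio) and 29.1% (covered part), and the Taf6l-KO values were 0.356, 21.4%, 60.3%, 0.240 and 43.9%. With 50% of the peak covered, 0.522% and 7.33% of wild-type peaks were kept and 87.4% of Taf6l-KO peaks lay inside the wild-type list. For the strongest 1000 wild-type peaks the kept shares were 8.60% and 45.8% and the Taf6l-KO covered part 37.6%. Lists of equal length gave width ratios of 0.142 and 0.198. A common smallest width gave number ratios of 0.0134 and 0.191 and width ratios of 0.607 and 0.650. Gaps of 1000 bp, merging, chromosomes X and Y and single pairs moved no value beyond its interval. Alternatives for the other lists were chosen after the data were seen. By the centre of the H3K9ac peak, the shares in peaks kept in both, in Taf6l-KO only and in neither were 2.02%, 3.24% and 1.33% for Myc, 83.8%, 82.9% and 72.2% for RNAP, and 7.07%, 3.82% and 1.82% for TAF6L-FB. In the strongest 25% of wild-type peaks, Myc was at 21.7% of those kept in Taf6l-KO only and 11.3% of those kept in neither, RNAP at 98.1% and 97.4%, and TAF6L-FB at 9.04% of those kept in neither. With both limits together, the shares were 2.44%, 3.97% and 4.61% for Myc, 84.1%, 88.9% and 85.6% for RNAP, and 8.54%, 3.97% and 3.14% for TAF6L-FB, so that Myc was highest in the peaks kept in neither. Leaving out TAF6L-FB line 1 or line 2 gave 2.02% to 12.1%, 2.79% to 9.26% and 1.48% to 3.58%. The cause of these shifts was not tested, apart from those that follow from fewer or shorter peaks. No paired analysis was possible because there is 1 library per genotype. Single libraries and inputs of unequal depth limit all comparisons.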

Other observations

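Chromosome X, outside the comparison above, held 107 wild-type H3K9ac peaks with a median width of 302 bp. The Taf5l-KO list had 0 peaks there, which allows a kept share of up to 2.80% (3 of 107) or 3.39% by the exact interval, and the Taf6l-KO list had 18 and kept 13 of the wild-type peaks, or 12.1% (6.63 to 19.9). Chromosome Y had no H3K9ac peak in any genotype.

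Wild-type H3K9ac peaks lay a median of 83.2 kb from their nearest neighbour. The 242 peaks with a neighbour within 2000 bp were kept in Taf6l-KO in 16.5% (12.1 to 21.8) of cases and in Taf5l-KO in 2.48% (0.915 to 5.32). At gaps of 2000 to 10000 bp the shares were 23.8% (19.2 to 28.9) and 2.22% (0.898 to 4.52) of 315 peaks, and at 10000 to 100000 bp 20.6% (18.7 to 22.7) and 3.32% (2.50 to 4.31) of 1626. For the 1841 peaks with no neighbour within 100000 bp these shares were 17.9% (16.1 to 19.7) and 2.06% (1.46 to 2.82). The Taf6l-KO share was highest in peaks 2000 to 10000 bp apart, though its interval overlapped those of the other groups. Those peaks also had the highest median fold enrichment (5.16) and width (575 bp) of the 4 groups.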
